A study of Mus musculus with 16 samples.

Results

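The glomerular basement membrane is the sheet of matrix between the podocytes and the fenestrated endothelium of the kidney's filter, and 10 genes of its protein components are described here: Col4a1, Col4a2, Col4a3, Col4a4 and Col4a5 (type IV collagen chains), Lama5 and Lamb2 (laminin chains), Agrn (agrin), Nid1 (nidogen) and Hspg2 (perlecan). They were taken by name from a table of 25791 gene symbols, and all 10 were in it and all 10 passed the filter on low values that left 13286 genes. Expression came from mRNA libraries of glomeruli isolated by iron perfusion and a magnet. In 7 libraries, called RAAS-blocked after the renin-angiotensin-aldosterone system, the mice drank lisinopril (20 mg/day), which inhibits the enzyme that makes angiotensin II, and losartan (30 mg/day), which blocks the receptor through which angiotensin II acts. Treatment ran from 10 to 12 weeks of age up to 26 weeks. The other 9 libraries came from untreated mice. All 16 carried the genotype eNOS-/-//db/db, which joins the diabetic db mutation of the leptin receptor to the loss of endothelial nitric oxide synthase, so untreated mice were diabetic too and mice without these alleles were not analysed here. The labels name no tissue-specific driver for either allele. Libraries are named by the replicate number in the labels, and nothing in the labels says sample by sample that each is a separate mouse, so the p-values here cover the spread among these libraries, which may be technical.

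Type IV collagen chains assemble as triple helices that join into a network. The embryonic glomerulus is built with the chains of Col4a1 and Col4a2, and as the capillary matures the network of the Col4a3, Col4a4 and Col4a5 chains, made by podocytes, becomes the main collagen of the membrane, while Col4a1 and Col4a2 continue to be made by mesangial and endothelial cells. Loss of a chain of the podocyte network causes Alport syndrome in humans. The laminin chains of Lama5 and Lamb2 form, with that of Lamc1, the laminin of the mature membrane. Agrin and perlecan are heparan sulfate proteoglycans, and nidogen links the laminin and collagen networks.

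Col4a1 and Col4a2 are neighbours in the genome, as are Col4a3 and Col4a4, and the start regions of the collagen genes are shown because the levels of these neighbours are compared. Promoter windows from RefSeq on GRCm38.p6 hold 250 bases before and 50 after a gene's start, and 9 of the 10 genes had one. Col4a3 was without an entry. The build behind the deposited values is not given in the sources used here, and these positions belong to RefSeq and not to the expression table. Col4a1 (chr8:11312777-11313076, minus strand) and Col4a2 (chr8:11312555-11312854, plus strand) start head to head, and capitals mark the 78 bases that the windows share, read from opposite strands. In the window of Col4a4 (chr1:82586800-82587099, minus strand) capitals mark the 179 bases that lie inside the annotated gene Col4a3 on the other strand. In that of Col4a5 (chrX:141475169-141475468, plus strand) capitals mark a CCAAT box and, farther on, the letters GGGCGG. All are written 5′ to 3′ on the strand of their gene.
Col4a1: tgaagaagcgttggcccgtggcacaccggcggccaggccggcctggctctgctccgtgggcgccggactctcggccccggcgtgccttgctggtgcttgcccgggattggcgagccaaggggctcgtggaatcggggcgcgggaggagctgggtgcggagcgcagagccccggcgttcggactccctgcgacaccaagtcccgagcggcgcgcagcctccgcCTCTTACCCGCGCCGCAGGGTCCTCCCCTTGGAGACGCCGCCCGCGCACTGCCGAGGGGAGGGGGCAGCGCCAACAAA
Col4a2: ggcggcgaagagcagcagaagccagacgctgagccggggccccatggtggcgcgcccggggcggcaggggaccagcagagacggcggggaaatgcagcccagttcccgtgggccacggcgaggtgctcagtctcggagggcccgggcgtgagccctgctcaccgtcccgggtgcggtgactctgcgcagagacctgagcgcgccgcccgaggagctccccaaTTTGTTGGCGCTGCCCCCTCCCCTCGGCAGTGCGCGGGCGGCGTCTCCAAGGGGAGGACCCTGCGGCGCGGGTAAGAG
Col4a4: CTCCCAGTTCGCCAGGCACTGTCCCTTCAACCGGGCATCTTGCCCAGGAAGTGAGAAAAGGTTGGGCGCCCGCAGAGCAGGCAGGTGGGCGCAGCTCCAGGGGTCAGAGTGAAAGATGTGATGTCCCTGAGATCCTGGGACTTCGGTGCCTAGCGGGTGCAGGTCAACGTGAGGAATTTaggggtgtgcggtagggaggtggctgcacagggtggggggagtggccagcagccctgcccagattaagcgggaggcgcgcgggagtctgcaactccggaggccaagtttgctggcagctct
Col4a5: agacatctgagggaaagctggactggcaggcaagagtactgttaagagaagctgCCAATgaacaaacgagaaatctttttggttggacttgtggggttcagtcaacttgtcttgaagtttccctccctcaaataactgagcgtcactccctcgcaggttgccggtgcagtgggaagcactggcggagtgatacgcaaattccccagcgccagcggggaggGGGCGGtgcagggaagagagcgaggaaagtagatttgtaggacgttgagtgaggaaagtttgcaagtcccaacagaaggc
Searches on both strands covered the CCAAT box, the GC box (letters GGGCGG) and the TATA box (letters TATAAA). The shared stretch of Col4a1 and Col4a2 held the GC box letters 1 time and the CCAAT letters 0 times. Over the whole windows the CCAAT letters occurred 1 time in Col4a1, outside the stretch, and 1 time in Col4a2, across its edge. The GC box letters occurred 1 time in the Col4a1 window and 3 times in that of Col4a2. The Col4a4 window held none of the 3 boxes. The TATA box letters were in no window of the 9 genes. Of all 32851 windows, 37.4% held the CCAAT letters, 35.7% those of the GC box and 13.6% those of the TATA box. Only the last 50 bases of each window lie after its gene's start, so the 78 bases shared by the windows cannot all lie in both genes. No label or header says whether strand was used in counting, so reads from bases that do lie in both head-to-head genes cannot be told apart.

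Some libraries stood apart. Absolute depth is unknown. The steps of the low values put 15 libraries within 1 to 1.70 times the depth of untreated replicate 0, while RAAS_blocked replicate 4 followed these steps in only 47.7% of 44 genes and had 16919 symbols above 0, against 17993 to 18613 in the others. The same library had Ren1, the renin gene, at 33.5 FPKM, against 443 to 1584 FPKM in the other 6 treated libraries, and so within the untreated range of 6.92 to 263 FPKM. It is kept under its label. Nos3 was at 12.1 to 43.8 FPKM over all libraries, a level that does not check the targeted allele, since the deleted part is not given in the sources used here. Podocytes, a defining cell of the glomerulus, were marked in every library by the gene Nphs1 (nephrin), at 181 to 470 FPKM. Content was uneven: the proximal tubule gene Slc34a1 was at 2.59 to 241 FPKM and the gene Umod of the ascending limb at 107 to 1168 FPKM. The summed level of 15 podocyte markers was 1844 to 5463 FPKM in treated and 2312 to 5306 FPKM in untreated libraries, with replicate 6 highest in each group and Podxl listed at 0 throughout. In these bulk libraries fewer cells of a type and less RNA per cell cannot be told apart.

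FPKM is scaled for transcript length, so levels can be ordered between genes. Averaged over 16 libraries, Col4a1 was highest at 187 FPKM, followed by Col4a2 at 167 FPKM and Col4a3 at 166 FPKM. Col4a1 exceeded Col4a2 in 15 of 16 libraries, whereas Col4a2 exceeded Col4a3 in 10, so Col4a2 and Col4a3 had no stable order. Lamb2 followed at 104 FPKM, below Col4a3 in all 16 libraries and above Col4a4 (73.1 FPKM) in 15. Col4a4 exceeded Nid1 (67.8 FPKM) in 7 of 16 libraries and Agrn (49.5 FPKM) exceeded Lama5 (49.3 FPKM) in 8, which leaves these neighbours without an order. Col4a5 was at 32.9 FPKM, below Lama5 in 15 libraries, and Hspg2 at 26.4 FPKM, below Col4a5 in 10. The laminin chain Lamb2 varied least, with a 1.67-fold range between its lowest and highest library and a coefficient of variation of 13.3%. Hspg2 had the widest range, 3.72-fold, while its coefficient of variation, 29.5%, was below the 34.0% of Col4a5. The collagen genes ranged over 2.38-fold (Col4a4) to 3.11-fold (Col4a2).

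**Figure D1:**
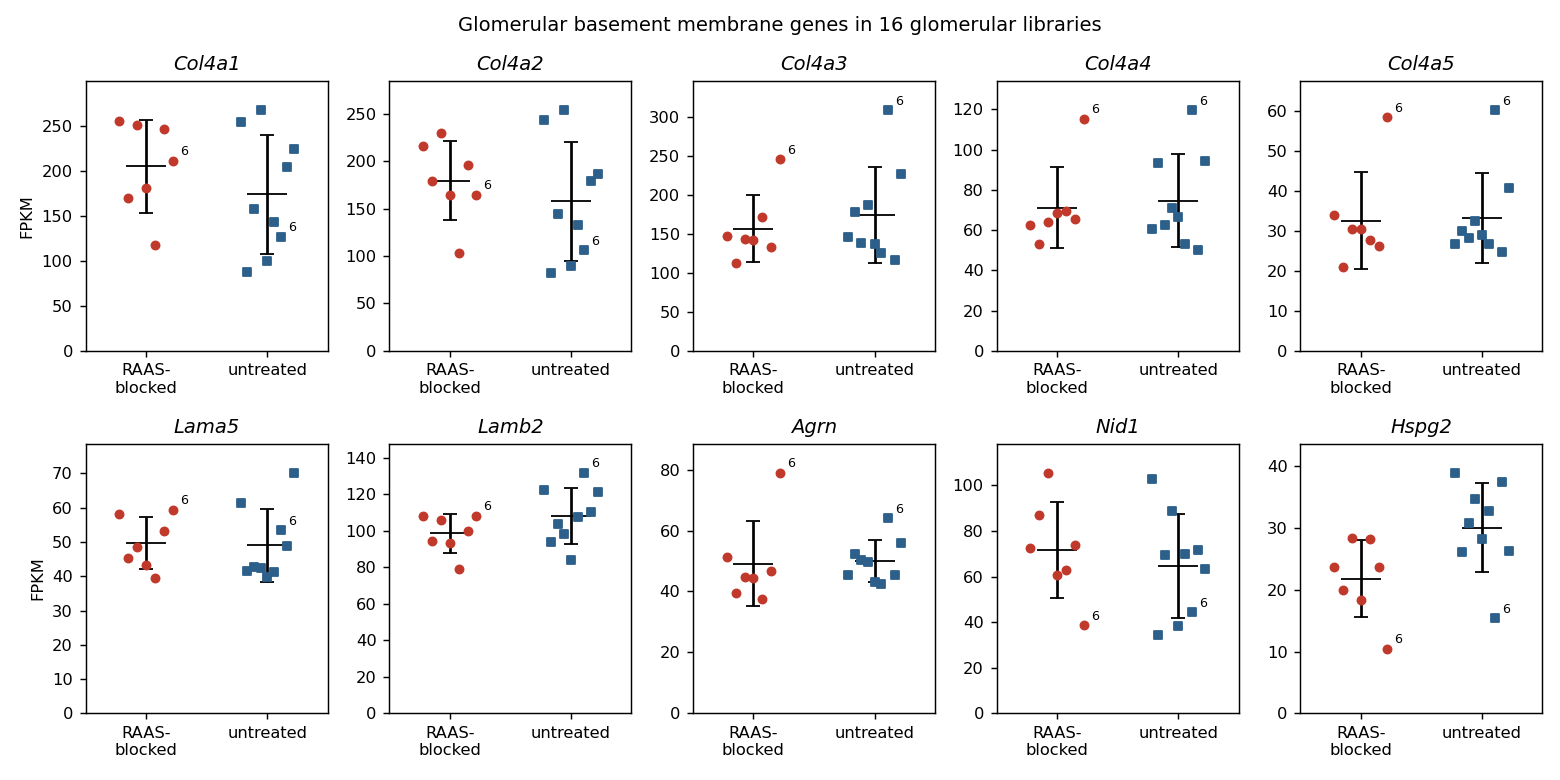
FPKM of the 10 genes in each library, RAAS-blocked (circles, n = 7) left of untreated (squares, n = 9), with bars for the mean and SD and the number 6 beside replicate 6 of each group. The groups overlap in every gene, and replicate 6 is the highest library of its group for Col4a3, Col4a4, Col4a5, Lamb2 and Agrn in both groups and the lowest for Hspg2.

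Of the 10 genes 0 passed the test of RAAS-blocked against untreated libraries in limma at an adjusted p of 0.05, where 0.0151% of the 13286 genes tested did (1 higher and 1 lower). Ren1, with a log2 difference of 3.85, did not pass either (limma unadjusted p = 0.000115, adjusted p = 0.218). It passed in 1 of 16 fits with 1 library left out. The groups did not overlap in 0 of the 10, against 0.0602% of all tested genes. At an unadjusted p under 0.05 there was 1 of 10, Hspg2, where 6.13% of all tested genes reached it in either direction and 3.42% in the lower one. An exact Wilcoxon test called 0 of all genes tested at an adjusted p of 0.05 and 757 at an unadjusted one. The means of 6 genes were lower and of 4 higher after RAAS blockade, with a median difference of -0.04 on the log2(FPKM + 1) scale, against 55.3% lower and a median of -0.02 over all tested genes. The adjusted threshold was also passed by 0 of the 10 when RAAS_blocked replicate 4, or any other single library, was left out. Without RAAS_blocked replicate 4 the log2 differences were 0.42 for Col4a1, 0.38 for Col4a2, -0.15 for Col4a3, -0.05 for Col4a4 and -0.01 for Col4a5. They were 0.08 for Lama5, -0.08 for Lamb2, 0.0035 for Agrn, 0.19 for Nid1 and -0.53 for Hspg2, so that Agrn changed sign.

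The collagen pair of the embryonic network was broadly spread. Col4a1 was at a lowest, median and highest level of 117, 211 and 256 FPKM in treated libraries, and of 86.9, 157 and 267 FPKM in untreated ones. The treated values lay within the untreated range, and the wide part of that range came from untreated replicates 1 and 4 at the low end and 3 and 0 at the high end. Its log2 difference was 0.29 ± 0.24 (SE; 95% interval -0.22 to 0.81, limma adjusted p = 0.906). Col4a2 was at 104, 180 and 230 FPKM in treated and 81.7, 144 and 254 FPKM in untreated libraries, with the same untreated libraries at both ends. Its log2 difference was 0.25 ± 0.24 (95% interval -0.26 to 0.76, limma adjusted p = 0.922). For both genes the interval holds differences of either sign. Untreated replicates 1 and 4 also had the highest levels of proximal tubule markers. Without them the log2 differences were 0.065 for Col4a1 and 0.031 for Col4a2, and with the proximal tubule level as a covariate they were 0.28 and 0.25. Both had low mesangial levels as well, at 565 and 393 FPKM in sum. The smooth muscle and pericyte markers, whose summed level was 327 to 524 FPKM in treated and 95.9 to 464 FPKM in untreated libraries, had higher treated means in 6 of 6 genes with none listed at 0. Fibroblast and immune markers had higher treated means in 5 of 5 tested genes each and mesangial markers in 6 of 8. Of all 13286 tested genes 5944 had a higher treated mean. At a limma unadjusted p under 0.05, 3 smooth muscle and 3 fibroblast markers were higher, with 0 immune and 0 mesangial ones, beside 360 of all tested genes. The part of these markers in the differences was not tested.

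The chains of the mature network had close medians in both groups. Col4a3 was at 113, 144 and 246 FPKM in treated and 116, 146 and 310 FPKM in untreated libraries (log2 -0.12 ± 0.20, 95% interval -0.54 to 0.30, limma adjusted p = 0.947). Col4a4 was at 53.3, 65.4 and 115 FPKM in treated and 50.2, 66.6 and 120 FPKM in untreated libraries (log2 -0.05 ± 0.18, 95% interval -0.44 to 0.34, limma adjusted p = 0.976). Col4a5, on the X chromosome, was at 20.9, 30.3 and 58.4 FPKM in treated and 24.8, 29.0 and 60.2 FPKM in untreated libraries (log2 -0.04 ± 0.20, 95% interval -0.46 to 0.38, limma adjusted p = 0.984). In each of the 3 genes the groups overlapped widely and the highest library was replicate 6 in both groups. Without untreated replicate 6 the log2 differences of Col4a3, Col4a4 and Col4a5 were -0.0089, 0.04 and 0.07, and without RAAS_blocked replicate 6 they were -0.24, -0.17 and -0.19, so the sign for Col4a4 and Col4a5 rested on single libraries. With the podocyte level as a covariate they were -0.01, 0.05 and 0.07. With the endothelial level as a covariate, a fit chosen after seeing the data, they were -0.34, -0.31 and -0.26, and none passed in either fit. Podocyte markers had lower treated means in 11 of 14 tested genes, where 55.3% of all tested genes did, and their part in the differences was not tested. Col4a6, whose promoter window lies 842 bases from that of Col4a5 and whose chain belongs to other basement membranes, was at 3.93 ± 1.09 FPKM in treated and 3.83 ± 1.09 FPKM in untreated libraries (SD, n = 7 and 9).

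**Figure D2:**
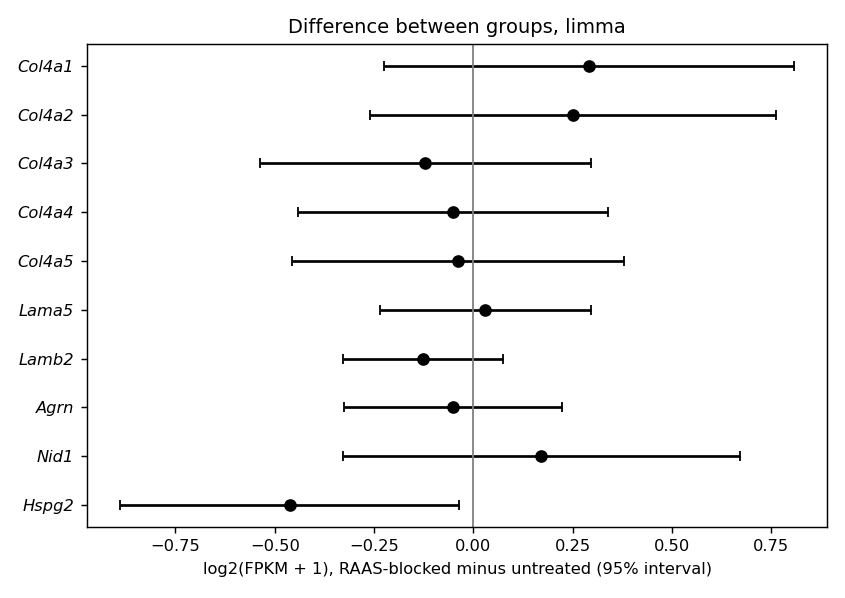
Difference of log2(FPKM + 1) between groups, RAAS-blocked minus untreated, for each gene (points) with its unadjusted 95% interval from limma (bars). The interval of Hspg2, -0.89 to -0.04, is the only 1 of the 10 that leaves out 0, and none of the 10 passed the test after adjustment over all genes.

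The pair was then set against the trio by taking, in each library, the mean log2(FPKM + 1) of Col4a1 and Col4a2 minus that of Col4a3, Col4a4 and Col4a5. This difference was 1.41 ± 0.55 in treated and 1.07 ± 0.77 in untreated libraries (SD, n = 7 and 9), 0.34 apart, which is within the SD of either group. It is given without a test. Treated libraries ran from 0.65 (replicate 6) to 1.86 (replicate 2), with 4 of them between 1.77 and 1.86 and replicate 4 at 0.66. Untreated libraries ran from -0.17 (replicate 6) to 1.98 (replicate 0), and covered the whole treated range. Without untreated replicates 1 and 4 the groups were 0.12 apart, without untreated replicate 1 alone 0.22 and without untreated replicate 6 alone 0.19. They were 0.47 apart without RAAS_blocked replicate 4 or RAAS_blocked replicate 6, and 0.73 with the endothelial level as a covariate, a fit chosen after seeing the data. Untreated replicate 6 was the only library in which the score was below 0. Expressed as a ratio of FPKM, Col4a1 over Col4a3 was 1.38 ± 0.46 in treated and 1.09 ± 0.49 in untreated libraries, and Col4a1 exceeded Col4a3 in 5 of 7 treated and 5 of 9 untreated libraries.

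**Figure D3:**
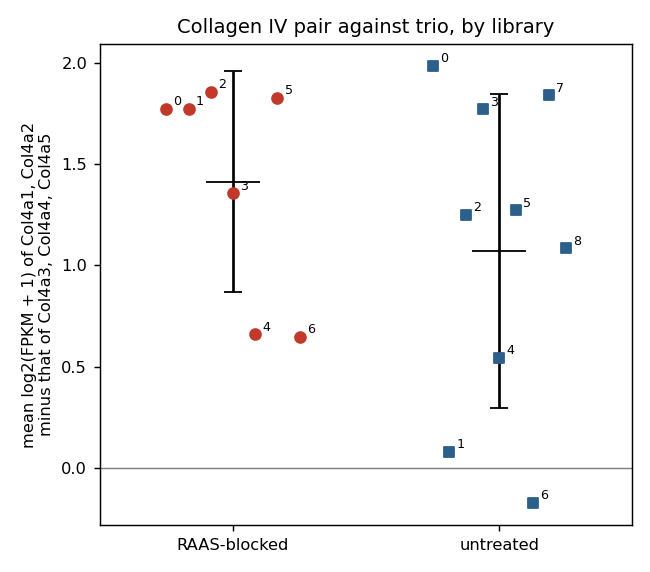
Mean log2(FPKM + 1) of Col4a1 and Col4a2 minus that of Col4a3, Col4a4 and Col4a5 in each library, numbered by replicate, RAAS-blocked left of untreated, with bars for the mean and SD. The treated libraries, 0.65 to 1.86, lie inside the untreated range of -0.17 to 1.98.

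Between libraries the collagen genes moved as separate blocks. Over 16 libraries Col4a1 and Col4a2 had a Pearson r of 0.98 (permutation p = 1e-05, the smallest that 100000 resamples can give, adjusted p = 0.00015 over 45 pairs of the 10 genes), and Spearman's rho was 0.97 (permutation p = 1e-05). Leaving out the 2 libraries at the greatest distance from the median of Col4a1 gave an r of 0.96, and r was 0.93 within treated and 0.99 within untreated libraries. The ratio of Col4a2 to Col4a1 was 0.884 ± 0.092 in treated and 0.906 ± 0.047 in untreated libraries, with a coefficient of variation of 7.66% over all libraries, against 40.0% for Col4a1 over Col4a3. Only part of the 78 bases shared by the windows lies after both starts, and how far reads from that part enter both values was not tested.

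The trio formed the other block. Col4a3 and Col4a4, neighbours on the same chromosome, had an r of 0.95 (permutation p = 1e-05, adjusted p = 0.00015) and a rho of 0.86 (permutation p = 4.0e-05). Col4a5 lies on another chromosome and had an r of 0.92 with Col4a3 (permutation p = 1e-05, rho 0.86, permutation p = 4.0e-05) and of 0.89 with Col4a4 (permutation p = 3.0e-05, rho 0.79, permutation p = 0.00048). The libraries farthest from the medians were replicate 6 of each group, and without them these r values were 0.89, 0.82 and 0.73. Within treated libraries they were 0.96, 0.92 and 0.93, and within untreated libraries 0.94, 0.96 and 0.88. The 3 relations held without those libraries. Col4a3 over Col4a4 was 2.21 ± 0.16 in treated and 2.32 ± 0.24 in untreated libraries, and Col4a3 over Col4a5 was 4.95 ± 0.688 in treated and 5.22 ± 0.493 in untreated libraries.

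Across the blocks 0 of 6 pairs of collagen genes passed, with r between -0.33 and 0.01. Col4a1 with Col4a3 had an r of -0.09 (permutation p = 0.730, adjusted p = 0.798) and a rho of 0.10 (permutation p = 0.705). Of all 45 pairs of the 10 genes 15 passed an adjusted p of 0.05, 11 with a positive and 4 with a negative r. With each group centred on its own mean 19 pairs passed, the same 15 and 4 more: Col4a3 with Hspg2 (r = -0.72, adjusted p = 0.010), Nid1 with Hspg2 (r = 0.71, adjusted p = 0.0067), Col4a1 with Lamb2 (r = 0.59, adjusted p = 0.040) and Lama5 with Agrn (r = 0.57, adjusted p = 0.047). Without replicate 6 of both groups the uncentred r of these 4 pairs were 0.05, 0.23, 0.65 and 0.52. Cell content differed between the libraries, and FPKM within a library share a total. The part of the shared total was not tested.

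**Figure D4:**
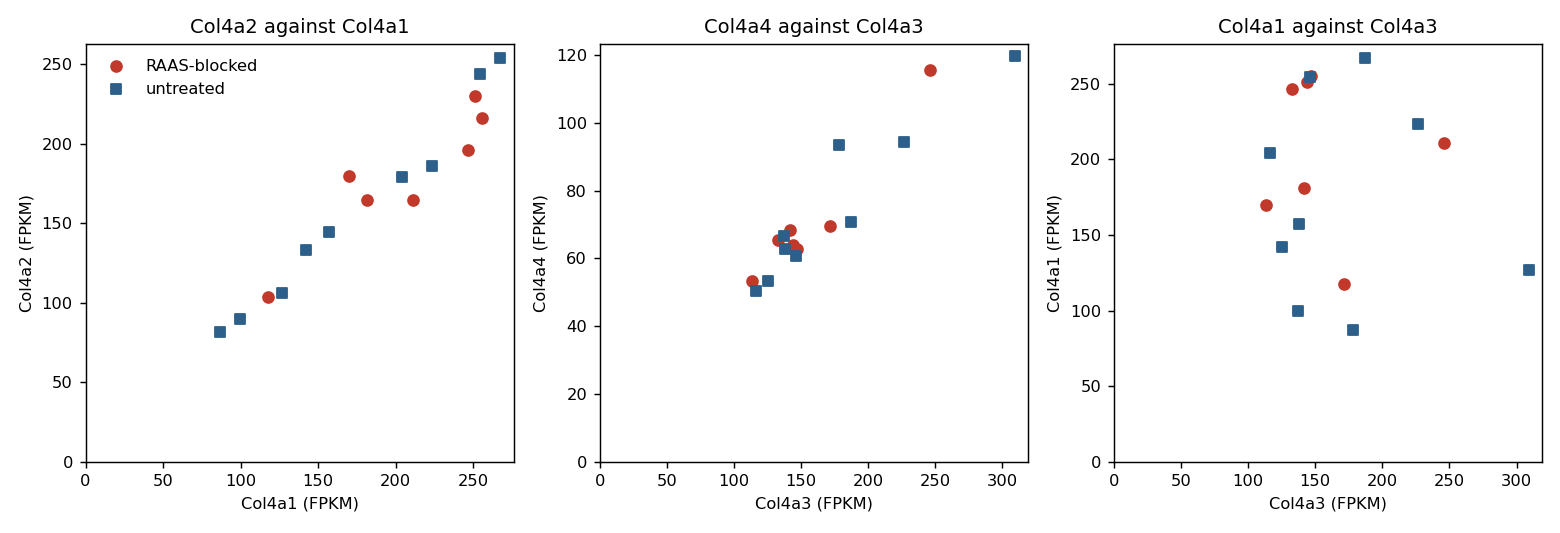
FPKM of Col4a2 against Col4a1, of Col4a4 against Col4a3 and of Col4a1 against Col4a3 in RAAS-blocked (circles) and untreated (squares) libraries. The first and second plots follow a line, with r of 0.98 and 0.95 on the log2 scale, and the last, with an r of -0.09, does not.

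The other components joined these blocks unequally. Agrn, which encodes the main heparan sulfate proteoglycan of this membrane, went with the trio, with r of 0.78 for Col4a3 (permutation p = 0.00076, rho 0.70, permutation p = 0.0031), 0.82 for Col4a4 (permutation p = 0.00018, rho 0.58, permutation p = 0.020) and 0.89 for Col4a5 (permutation p = 2.0e-05, rho 0.70, permutation p = 0.0034). All 3 passed the adjustment for r, and without replicate 6 of both groups they were 0.56, 0.58 and 0.71. The rho of Agrn with Col4a4 did not pass (adjusted permutation p = 0.072). Nid1 went with the pair, with r of 0.71 for Col4a1 (permutation p = 0.0023, rho 0.75, permutation p = 0.0014) and 0.81 for Col4a2 (permutation p = 0.0002, rho 0.86, permutation p = 4.0e-05). These were 0.47 and 0.66 without the 2 libraries farthest from the median of the collagen gene, and the r of Nid1 with Col4a1 was 0.92 within untreated but 0.22 within treated libraries. Lama5 and Lamb2, chains of the same laminin, had an r of 0.75 with each other (permutation p = 0.00073, adjusted p = 0.0038, rho 0.81, permutation p = 0.00027, and 0.66 without the 2 farthest libraries), and their r with the trio, 0.29 to 0.49, passed in 0 of 6 pairs. Lama5 also passed with Col4a1 (r = 0.61, permutation p = 0.014, adjusted p = 0.042, rho 0.61, permutation p = 0.015, and 0.51 without the 2 farthest libraries). The rho of that pair did not pass (adjusted permutation p = 0.061). The 4 negative pairs that passed were Hspg2 with Col4a4 (-0.66), Col4a5 (-0.67) and Agrn (-0.63), and Nid1 with Col4a4 (-0.66). Without replicate 6 of both groups these were -0.21, -0.02, 0.09 and -0.50, so the relations of Hspg2 rested on those libraries. The adjusted permutation p of rho was 0.072 to 0.40 in the 4 negative pairs.

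The levels of 9 marker lists were compared with the 10 genes in the same way, 90 relations adjusted together. Podocyte markers varied with Col4a3 (r = 0.93, permutation p = 2.0e-05, rho 0.86, permutation p = 3.0e-05), Col4a4 (r = 0.93, permutation p = 2.0e-05, rho 0.77, permutation p = 0.0009), Col4a5 (r = 0.94, permutation p = 2.0e-05, rho 0.86, permutation p = 7.0e-05) and Agrn (r = 0.88, permutation p = 4.0e-05, rho 0.76, permutation p = 0.00084), with adjusted p of 0.00036, 0.00036, 0.00036 and 0.0006 for r. Without the 2 libraries farthest from the median podocyte level, again replicate 6 of each group, the 4 values were 0.82, 0.82, 0.83 and 0.74. Nid1 followed the mesangial markers (r = 0.87, permutation p = 2.0e-05, adjusted p = 0.00036, rho 0.89, permutation p = 2.0e-05, and 0.81 without the 2 farthest libraries). Hspg2 followed the glomerular endothelial markers (r = 0.88, permutation p = 1e-05, adjusted p = 0.00036, rho 0.89, permutation p = 1e-05, and 0.82 without the 2 farthest libraries). Of the 90 relations 7 passed, the last being Col4a4 with the endothelial markers (r = -0.73, adjusted p = 0.016, and -0.66 without the 2 farthest libraries). Col4a1 and Col4a2 passed with no list. Col4a1 came nearest with smooth muscle and pericyte markers (r = 0.63, adjusted p = 0.058), which was 0.33 without the 2 farthest libraries. Col4a2 also came nearest with smooth muscle and pericyte markers (r = 0.62, adjusted p = 0.062, and 0.36 without the 2 farthest libraries). Its r with mesangial markers was much the same (r = 0.62, adjusted p = 0.086, and 0.61 without the 2 farthest libraries). With immune markers r was 0.57 for Col4a1 and 0.61 for Col4a2. Lama5 and Lamb2 passed with no list. With each group centred on its own mean 12 relations passed, the same 7 and 5 more: the endothelial markers with Col4a3 (r = -0.67, adjusted p = 0.033), Col4a5 (r = -0.65, adjusted p = 0.035), Agrn (r = -0.66, adjusted p = 0.032) and Nid1 (r = 0.75, adjusted p = 0.0092), and the podocyte markers with Hspg2 (r = -0.78, adjusted p = 0.016). Without replicate 6 of both groups the uncentred r of these 5 were -0.26, -0.22, -0.16, 0.45 and 0.04.

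**Figure D5:**
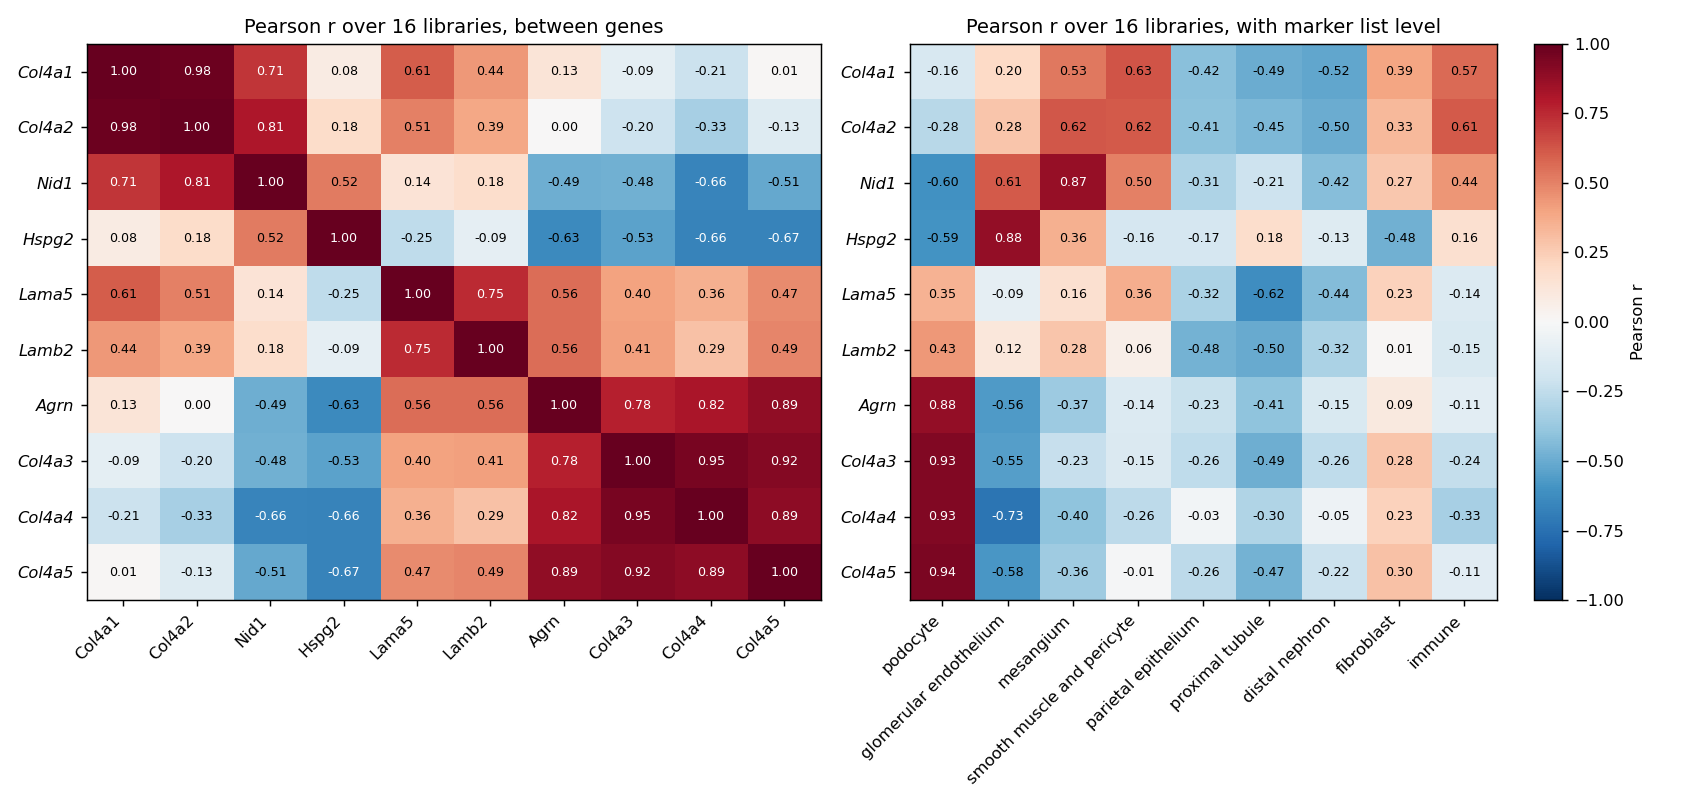
Pearson r over 16 libraries of log2(FPKM + 1), on the left between the 10 genes and on the right between each gene and the mean level of 9 marker lists, with red for positive and blue for negative values. Col4a3, Col4a4, Col4a5 and Agrn share the podocyte column (0.88 to 0.94), Hspg2 peaks with endothelium (0.88) and Nid1 with mesangium (0.87).

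Among the genes outside the 10 whose pattern was most like the pair, by Pearson r with its mean log2 level over 16 libraries, were Mapk7 (0.92), Zyx (0.92), Fhl3 (0.91) and Tcfe3 (0.91). Those most like the trio were Galc (0.98), Dpp4 (0.97), Nsf (0.96), Colec12 (0.95) and Ptpro (0.95), the last a receptor phosphatase of podocytes that is also in the podocyte list. These r are maxima over all tested genes and are given as a description.

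The laminins showed no difference between groups that passed the test. Lama5 was at a lowest, median and highest level of 39.4, 48.5 and 59.4 FPKM in treated and 39.8, 42.6 and 70.2 FPKM in untreated libraries (log2 0.03 ± 0.13, 95% interval -0.24 to 0.30, limma adjusted p = 0.979). Lamb2, whose loss causes congenital nephrotic syndrome in humans, was at 79.2, 100.1 and 108 FPKM in treated and 83.9, 108 and 132 FPKM in untreated libraries (log2 -0.13 ± 0.10, 95% interval -0.33 to 0.07, limma adjusted p = 0.894). Among the untreated libraries 4 lay above the highest treated one for Lamb2, and the groups overlapped in both genes. Lamc1, their partner chain, was at 36.5 ± 13.9 FPKM in treated and 37.5 ± 8.72 FPKM in untreated libraries. The embryonic chain Lama1 was at 0.318 ± 0.170 FPKM in treated and 0.345 ± 0.202 FPKM in untreated libraries, too low for testing, while Lamb1-1, the older symbol of Lamb1, was at 34.7 ± 6.45 FPKM in treated and 34.8 ± 4.6 FPKM in untreated libraries.

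Agrn was at 37.7, 44.8 and 79.0 FPKM in treated and 42.6, 49.6 and 64.0 FPKM in untreated libraries (log2 -0.05 ± 0.13, 95% interval -0.33 to 0.22, limma adjusted p = 0.959). RAAS_blocked replicate 6 was the highest library of all, and RAAS_blocked replicates 1 and 4 were the lowest. Nid1 was at 38.7, 72.7 and 106 FPKM in treated and 34.3, 69.3 and 103 FPKM in untreated libraries (log2 0.17 ± 0.24, 95% interval -0.33 to 0.67, limma adjusted p = 0.934), and the ranges all but coincided. The difference was 0.07 without untreated replicate 1, 0.09 without untreated replicate 4, 0.07 without RAAS_blocked replicate 2 and 0.31 without RAAS_blocked replicate 6. It was 0.09 with the podocyte level as a covariate and 0.47 with the endothelial level, a fit chosen after seeing the data. The summed mesangial markers were at 565 to 1525 FPKM in treated and 393 to 1621 FPKM in untreated libraries. Pdgfrb, a receptor of mesangial cells and pericytes, was at 47.6 ± 13.9 FPKM in treated and 36.5 ± 15.5 FPKM in untreated libraries (log2 0.42 ± 0.24, limma adjusted p = 0.833).

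Hspg2 had the lowest p of the 10. It was at 10.5, 23.6 and 28.4 FPKM in treated and 15.4, 30.8 and 38.9 FPKM in untreated libraries, and all 7 treated libraries lay below the untreated median, as 4 of 9 untreated libraries did by construction. Its log2 difference was -0.46 ± 0.20 (95% interval -0.89 to -0.04, limma unadjusted p = 0.035, exact permutation p = 0.044), and it did not pass over all genes (limma adjusted p = 0.795, 0.20 to 0.928 over the alternatives tried). Without RAAS_blocked replicate 6, which was the lowest, the difference was -0.31, and without RAAS_blocked replicate 4 it was -0.53. In 10 of 11 endothelial markers the treated mean was the lower one, where 55.3% of all tested genes had a lower mean. The summed level of these markers was 2886 to 4640 FPKM in treated and 2959 to 6299 FPKM in untreated libraries, with no marker listed at 0. Kdr, a receptor for VEGF-A on endothelium, was at 286 ± 108 FPKM in treated and 381 ± 97.6 FPKM in untreated libraries. With the endothelial level as a covariate, a fit chosen after seeing the data, the difference of Hspg2 was -0.17 (limma adjusted p = 0.490).

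Other genes of the basement membrane and its assembly were counted in lists, and 0 genes of these lists passed over all genes tested. Their counts at an unadjusted p stand beside 6.13% of all tested genes in either direction. Among 17 tested basement membrane genes outside the 10, 3 had higher and 14 lower means (3 of the lower at an unadjusted p under 0.05), where 55.3% of all tested genes had a lower mean and 3.42% were lower at that p, with a median log2 difference of -0.18 against -0.02 over all tested genes. Col15a1, a collagen of endothelial and muscle basement membranes, was at 5.72 ± 3.12 FPKM in treated and 9.01 ± 3.20 FPKM in untreated libraries (log2 -0.63 ± 0.23, limma adjusted p = 0.716). Sparc, a collagen-binding matrix glycoprotein, was at 933 ± 215 and 1195 ± 289 FPKM, Lama3 at 4.61 ± 0.93 and 5.89 ± 1.32 FPKM, and Frem1 at 1.39 ± 0.23 and 1.91 ± 0.63 FPKM in treated and untreated libraries. These means were lower in treated libraries, and the groups overlapped in each gene.

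Of 19 tested genes that fold, modify or cross-link collagen, 10 had higher and 9 lower means, with a median of 0.05 and 1 gene at an unadjusted p under 0.05. Glt25d2, the older symbol of the collagen galactosyltransferase gene Colgalt2, had the lowest p, at 29.8 ± 5.33 FPKM in treated and 37.1 ± 7.46 FPKM in untreated libraries (log2 -0.30 ± 0.13, limma adjusted p = 0.760). Loxl2, a lysyl oxidase that cross-links type IV collagen, had a log2 difference of -0.41 ± 0.27, the prolyl hydroxylase subunit P4ha1 of 0.16 ± 0.11 and the lysyl hydroxylase Plod3 of 0.13 ± 0.10. Without RAAS_blocked replicate 6 those of P4ha1 and Plod3 were 0.08 and 0.07, and without RAAS_blocked replicate 4 that of Plod3 was 0.21. Mia3, which exports bulky collagens from the endoplasmic reticulum, was listed at 0 in every library and was not compared.

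Of 17 tested receptors of basement membrane proteins, 6 had higher and 11 lower means (median -0.09), with 1 gene at an unadjusted p under 0.05. Itga1, the integrin chain that binds type IV collagen on mesangial cells, was at 16.1 ± 3.84 FPKM in treated and 10.3 ± 3.42 FPKM in untreated libraries, a log2 difference of 0.63 ± 0.19 that reached an unadjusted p of 0.0037 in limma but not the adjusted threshold (limma adjusted p = 0.570). The collagen receptor Ddr2 had a log2 difference of 0.43 ± 0.21, dystroglycan (Dag1) of -0.23 ± 0.15 and Itga3, the laminin-binding integrin chain of podocytes, of -0.16 ± 0.12. Dag1 was at -0.15 without untreated replicate 6 and Itga3 at -0.25 without RAAS_blocked replicate 6.

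Heparan sulfate synthesis and editing, which builds the sugar chains of agrin and perlecan, had 17 lower and 4 higher means in 21 tested genes (median -0.07), with 1 at an unadjusted p under 0.05. With upper-quartile scaling 15 of the 21 were lower, beside 6360 of all 13286 tested genes, and with quantile normalization 16, beside 6927. In the main fit 7342 of all tested genes were lower. Ndst1, the main sulfotransferase of early chain modification, was at 24.98 ± 2.60 FPKM in treated and 28.3 ± 3.30 FPKM in untreated libraries (log2 -0.17 ± 0.08, limma adjusted p = 0.810). Hs3st6 had a log2 difference of -0.47 ± 0.23, the chain polymerase gene Ext2 of -0.18 ± 0.09 and the sulfatase gene Sulf2 of -0.31 ± 0.16.

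Matrix proteases and inhibitors had 9 higher and 4 lower means in 13 tested genes (median 0.20), with 1 at an unadjusted p under 0.05. Mmp7 was at 0.639 ± 0.404 FPKM in treated and 1.61 ± 1.04 FPKM in untreated libraries (log2 -0.60 ± 0.24, limma adjusted p = 0.755), the protease inhibitor Timp1 had a log2 difference of 0.55 ± 0.34, Plat (tissue plasminogen activator) of -0.35 ± 0.23 and Adamts4 of 0.68 ± 0.58. The treated mean of Adamts4, 10.9 ± 19.0 FPKM, had an SD larger than itself, and without RAAS_blocked replicate 6 its log2 difference was 0.15. That of Timp1 was 0.31 without the same library, and that of Plat was -0.20 without RAAS_blocked replicate 3. Among 13 tested regulators 4 had higher and 9 lower means (median -0.02) and 0 reached an unadjusted p under 0.05. With upper-quartile scaling 6 of the 13 were lower, and with quantile normalization 7, beside 6360 and 6927 of all 13286 tested genes. Lmx1b, a podocyte transcription factor needed for Col4a3 and Col4a4 expression in the mouse, was at 19.4 ± 7.96 FPKM in treated and 26.6 ± 12.4 FPKM in untreated libraries (log2 -0.43 ± 0.26, limma adjusted p = 0.856). The receptor Tgfbr2 had a log2 difference of -0.20 ± 0.15 and the connective tissue growth factor Ctgf of 0.42 ± 0.34, which was 0.21 without untreated replicate 1.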

How the data were processed

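Glomerular mRNA was sequenced in 16 libraries, 7 RAAS-blocked and 9 untreated per the labels. The authors deposited 1 table of FPKM values, fragment counts scaled for transcript length and library depth, with 1 column per library matched by title. Cuffdiff 2.2.1, Cufflinks, TopHat2 2.0.8, FastQC and CASAVA 1.8.2 stand in the submitters' processing notes without their roles. The genome build, annotation and strand setting were not given in the sources used here. Mir27a was at 743781 FPKM in RAAS_blocked replicate 5 and 672307 FPKM in untreated replicate 7, and the upper quartiles of these libraries, 26.7 and 27.1 FPKM, lay within the 25.6 to 28.5 FPKM of the others. The numbers in the labels' descriptions form 2 runs, 1 for each group, so anything done run by run and the treatment cannot be told apart.

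Values were tested as log2(FPKM + 1), a scale that understates the change of low genes, with R 4.3.3 and limma 3.58.1 (mean trend, robust), group as only term, over the 13286 genes that reached 1 FPKM in 7 or more libraries, adjusted by Benjamini-Hochberg over all of them. All tests are two-sided. Correlations used 100000 permutations (Python 3.11.15, NumPy 2.4.6) over 45 gene pairs and 90 pairs of a gene and a marker list. The exact permutation test covered 11440 splits. Alternatives covered the pseudocount, filter, scaling, variance model, array weights, a replicate block, marker covariates, a rank test and leaving out libraries. A simulation used the means and spreads of these 13286 genes. It recovered 59.7% of 67 genes changed by log2 0.5, 89.6% of 67 changed by 1 and 98.5% of 66 changed by 2. These shares describe the simulated data only. In the real libraries Ren1, with a log2 difference of 3.85, did not pass (limma adjusted p = 0.218). Itga1, at 0.63, did not pass either (limma adjusted p = 0.570). How often changes of these sizes would be found among the basement membrane genes was not tested.

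The members and lists were chosen with earlier results of these data known. Beside the 10 genes the text names a fixed set of related and marker genes, up to 4 genes of each list with the lowest limma p, and the 5 tested genes most like the pair and the trio, without predicted symbols and small RNAs. Mia3, Podxl, Nos3 and Mir27a fall outside this rule and were named after their values were seen. Some genes that the rule selects are not reported here.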

Additional observations from a re-analysis of the deposited data

Results flagged for a closer look

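Single libraries stood far from the rest of their group in 4 of 22 sets of values examined. About 1 set in 20 does so by chance. The sets share their libraries and hold genes that vary together, so the 4 cannot be counted as separate events against that share. In RAAS_blocked replicate 6, Col4a4 was at 115 FPKM, where the next library of the group was at 69.4 FPKM. In the same library Col4a5 was at 58.4 FPKM, with the next at 33.9 FPKM, and Agrn at 79.0 FPKM, with the next at 51.4 FPKM. In untreated replicate 6, Col4a5 was at 60.2 FPKM, with the next at 40.7 FPKM. Both libraries had the highest mean podocyte marker level of their group, 7.55 in RAAS_blocked replicate 6 and 7.65 in untreated replicate 6 on the log2(FPKM + 1) scale. The part of podocyte content in these values was not tested.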

How the results depend on the processing

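None of the 10 genes and none of the other list genes passed the threshold under any of the 31 alternatives in limma or the exact Wilcoxon test. Over all genes the 2 calls became 1 with upper-quartile scaling, quantile normalization, eBayes without trend and robust, the proximal tubule level as covariate or, chosen after seeing the data, without replicate 6 of both groups. They became 8 with the podocyte level as covariate, 11 with array weights, 11 with the endothelial level as covariate (chosen after seeing the data) and 0 by the exact Wilcoxon test, which had 757 genes at an unadjusted p under 0.05. Leaving out 1 library gave 1 to 6, with 6 without RAAS_blocked replicate 4 and 4 without untreated replicate 8. The replicate block gave 1 call. The replicate numbers were not taken to pair the samples, since same-numbered libraries deviated together with r from -0.28 to 0.43 and 1 of 7 treated libraries matched its own number best. The score of pair against trio, 0.34 between groups, was 0.19 to 0.47 with 1 library left out, 0.45 in the replicate block, 0.21 with the podocyte and 0.73 with the endothelial covariate. The 15 correlated pairs became 19 with groups centred, 9 by Spearman rho, 9 without replicate 6 of both groups and 8 without the 2 libraries farthest from the median, and Col4a1 with Col4a3 had a rho of 0.10. Signs turned in 31 of 1235 recomputed differences, none past the threshold. With the podocyte covariate Col4a4 was at 0.051, Col4a5 at 0.074 and Agrn at 0.015. Without untreated replicates 1 and 4, Lama5 was at -0.038 and Nid1 at -0.040. In the replicate block Col4a6 was at -0.00359 and Lamc1 at 0.033. With the endothelial covariate Col4a6 was at -0.14, Lamb1-1 at 0.074 and Lamc1 at 0.054. Lamb1-1 was at 0.012 with upper-quartile scaling, 0.019 with quantile normalization, 0.063 with array weights and 0.036 without replicate 6 of both groups. With 1 library left out, Col4a4 ran from -0.17 to 0.040, Col4a5 from -0.19 to 0.073, Lama5 from -0.014 to 0.097, Agrn from -0.17 to 0.0035, Col4a6 from -0.058 to 0.10, Lamb1-1 from -0.062 to 0.082 and Lamc1 from -0.23 to 0.018. The cause of these changes was not tested. The table has no counts, so the counting error behind a value is unknown.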
